A study of Mus musculus with 2 samples.

Results

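The S100 genes described here encode 10 small calcium-binding proteins of squamous epithelium and its neighbours: S100a3, S100a4, S100a6, S100a7a, S100a8, S100a9, S100a10, S100a11, S100a14 and S100a16. They were taken by symbol from the probe sets that carry 1 gene symbol, and all 10 were found among 29456 genes, each with 1 probe set. RNA came from squamous organoids grown in Matrigel from mouse forestomach, the squamous-lined upper part of the rodent stomach, and was read on the Mouse Gene 2.0 ST array of Affymetrix. The SOX2 KO organoids were Krt5CreER/+; Sox2Δ/Δ; ROSA26tdTomato/+, so that a tamoxifen-dependent Cre under the Krt5 promoter deleted Sox2 in Krt5-expressing cells and a tdTomato reporter marked recombination. The WT control organoids are labelled wildtype, and the study describes its controls as littermates without Krt5CreER. The study gave its mice tamoxifen to start the deletion. The ages of the organoid donors were not given in the sources used here. Each group had 1 array, so the genotype cannot be told apart from the mouse, the culture or the array, no difference has a replicate check, and no test was possible.

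S100 proteins are small EF-hand proteins, mostly dimers, that open a hydrophobic surface when they bind calcium and then attach to target proteins such as annexins, myosin or transglutaminase substrates. In squamous epithelium several of them sit at the membrane and in the cornified envelope, and others are released as antimicrobial proteins or danger signals that act through receptors such as RAGE and TLR4. SOX2 is a transcription factor of the foregut, and the comparison addresses which genes of its squamous epithelium differ when it is lost.

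Values are the deposited log2 probe set signals, and each difference is SOX2 KO minus WT control, so that 1 is 2-fold. The medians over all genes were 3.30 and 3.29 in the WT control and SOX2 KO arrays, and 15983 genes reached the floor, a signal of 3.3 on at least 1 array. The 95th percentile of 1127 olfactory receptor genes, which epithelial organoids are not expected to use, was 3.84 and served as the background level, and the SD of their differences was 0.26. This SD describes genes at background signal, and does not measure variation between cultures or of bright genes. Where the dimmer array lay under 3.84, the fold was computed against 3.84 and is given as "at least". Counts of genes past 2-fold use the plain difference of the signals above the floor, without this bound. The targeted gene Sox2 had a signal of 5.74 on the WT control array and 2.53 on the SOX2 KO array, at least 3.72-fold lower. All 10 squamous markers were above the background level on both arrays, among them Krt5 (8.86 and 8.71), Krt14 (8.16 and 8.19) and Trp63 (6.44 and 6.31). Squamous transcripts were thus present on both arrays, as the label says. The SOX2 KO array also carried smooth muscle and fibroblast transcripts, such as Acta2 (4.16 and 7.05) and Dcn (2.83 and 5.90), given below.

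Of the 10 S100 genes, S100a7a was the only gene past 2-fold, and it was lower in the SOX2 KO. It was 1 of the 9 that reached the floor, of which 1 was lower by 2-fold or more and 0 were higher by that much. The shares of all 15983 genes past the same limits were 0.795% on the lower side and 2.01% on the higher side. Counting only genes above the background level on both arrays, 1 of 6 S100 genes was at least 2-fold lower and 0 were higher, against 1.02% and 1.96% of all such genes. The median difference of the 9 S100 genes was -0.12, beside 0.00 for all genes above the floor, and 8 of the 10 differed by 0.50 or less in either direction. In direction alone, 7 of the 10 were lower in the SOX2 KO, 2 were higher (S100a4 and S100a6) and S100a16 had the same value on both arrays. Of the 9 above the floor 6 were lower and 2 higher. Of all 15983 genes above the floor 7889 were lower and 7639 higher.

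**Figure D1:**
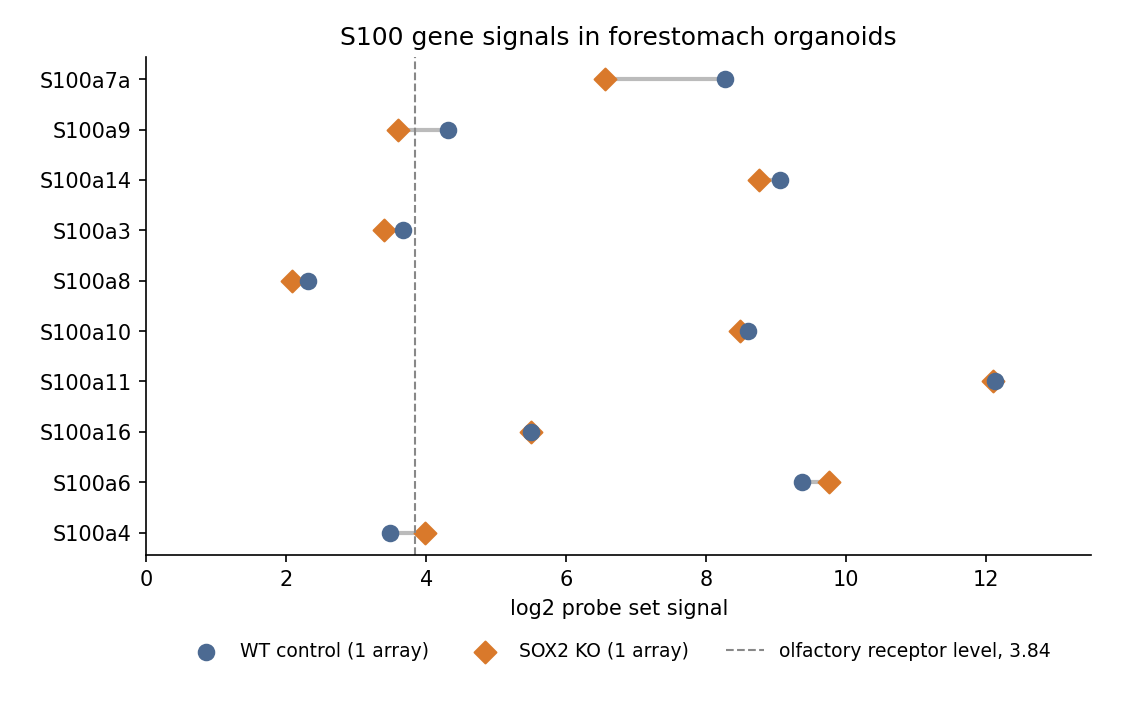
Signal of the 10 S100 genes on the WT control array (circles) and the SOX2 KO array (diamonds), as log2 probe set signal, ordered by their difference. The dashed line is the olfactory receptor level of 3.84; S100a7a has the widest gap, from 8.27 to 6.55, and S100a3 and S100a8 lie left of the line on both arrays.

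The largest plain differences were those of S100a7a and S100a9, and both were lower in the SOX2 KO. S100a9 was above the background level only on the WT control array. S100a7a, the mouse relative of human psoriasin and koebnerisin, which are antimicrobial and chemotactic proteins of inflamed skin, had a signal of 8.27 on the WT control array and 6.55 on the SOX2 KO array. This was a difference of -1.72, or 3.29-fold lower, with both arrays well above the background level. Counting S100a7a itself, 23 of the 15983 genes above the floor were as low or lower, and 0.532% differed by at least as much in either direction. Fewer cells that carry the transcript and less transcript per cell cannot be told apart in such bulk RNA. Other genes of squamous differentiation lay on both sides. The suprabasal keratins Krt13 (10.33 and 8.97), Krt6a (8.69 and 7.47) and Krt4 (8.46 and 7.49) were lower. Of the cornified envelope region between S100a9 and S100a11, Flg, Lor, Kprp, Lce1b, Lce1c and Sprr2d were higher by 2-fold or more. Crct1, Sprr2i and Sprr3 of the same region were lower by 2-fold or more. Both statements use plain differences, without the bound at the background level. The linear signals of the 10 squamous markers summed to 3756 on the WT control array and 2360 on the SOX2 KO array, with Krt13 making up -785.7 of the change of -1396.0. No marker was at 0, and their part in the S100a7a difference was not tested.

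S100a8 and S100a9 form calprotectin, a zinc- and manganese-binding dimer that is abundant in neutrophils and is induced in stressed squamous epithelium. The S100a9 signal was 4.31 on the WT control array and 3.60 on the SOX2 KO array. It was above the background level only in the WT control, so the decrease was by at least 1.38-fold, and 416 genes above the floor had a difference as low as its -0.71 or lower. S100a8, its partner, read 2.31 on the WT control array and 2.08 on the SOX2 KO array, under the floor and under the background level on both arrays, so no fold is given. The dimer partners were thus not both detected on either array. Of 11 neutrophil markers, 10 were under the background level on both arrays, including Ly6g (3.12 and 2.95) and Csf3r (3.19 and 3.08). The exception, Ltf, which epithelia also make, read 7.15 and 7.12. The neutrophil markers summed to 219.5 on the WT control array and 218.9 on the SOX2 KO array on the linear scale, with 0 at 0. Ltf was by far the brightest of them, so this sum follows Ltf more than the markers under the background level.

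**Figure D2:**
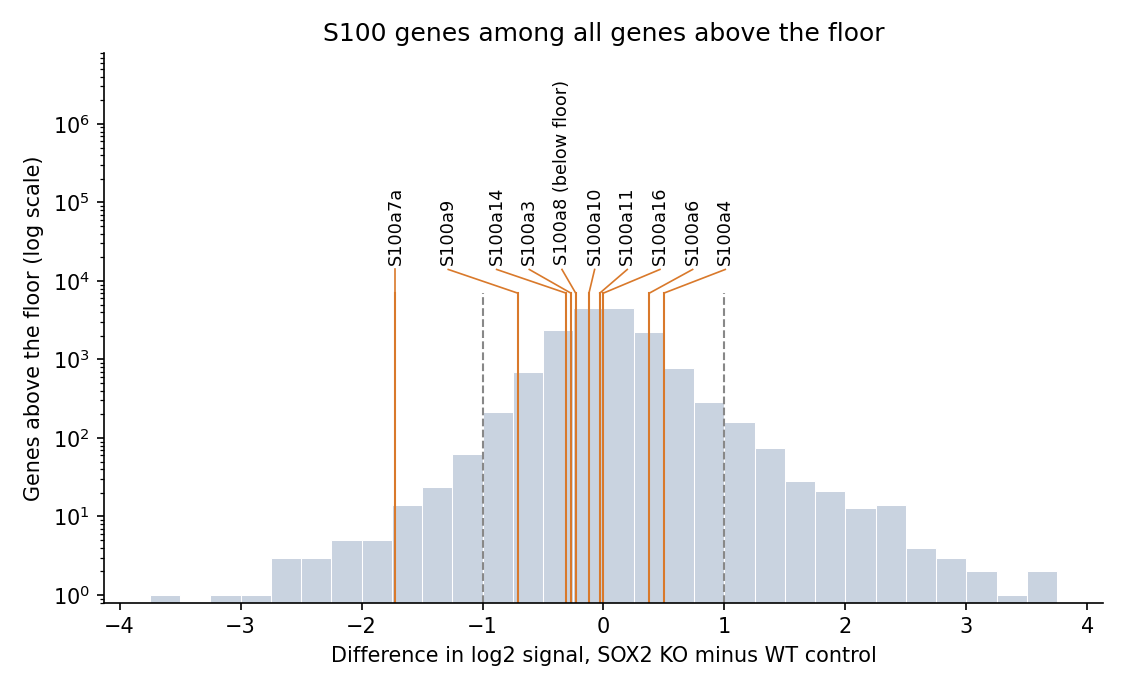
Histogram of the difference in log2 signal (SOX2 KO minus WT control) over the 15983 genes above the floor, with gene counts on a log axis, dashed lines at 2-fold and vertical lines for the 10 S100 genes. S100a7a at -1.72 lies in the low tail and S100a9 at -0.71 below the bulk, while the other 8 stand between -0.31 and 0.50; S100a8 is drawn although it did not reach the floor.

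Over all genes above the floor the central part of the differences, from the 5th to the 95th percentile, ran from -0.56 to 0.66. Of the 9 S100 genes above the floor 7 lay inside this range, and the exceptions were S100a7a and S100a9. Among the 6 S100 genes above the background level on both arrays, 5 lay inside it and S100a7a lay outside.

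The S100 proteins that attach to annexins at the membrane differed little. S100a10, also called p11, binds annexin A2 without needing calcium, and its signal was 8.60 on the WT control array and 8.48 on the SOX2 KO array, 1.09-fold lower. S100a11, a partner of annexin A1 and a protein of the cornified envelope, read 12.12 and 12.09, which is 1.02-fold lower. Both lay within the receptor SD of 0.26, which comes from genes of far lower signal. A pseudogene of S100a11 on chromosome 12, S100a11-ps, has 2 probe sets, which read 3.33 and 8.15 in the WT control and 3.62 and 8.29 in the SOX2 KO. How much signal the near-identical copies share was not tested.

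S100a14 and S100a16 are epithelial proteins whose human forms bind each other. S100a14 had a signal of 9.06 on the WT control array and 8.75 on the SOX2 KO array, a difference of -0.31, or 1.24-fold lower. S100a16 had 5.49 on both arrays. The difference of S100a14 was just beyond the receptor SD, which comes from genes of far lower signal and does not measure variation of bright genes. Of all genes above the floor 35.3% differed by at least as much.

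The 2 genes that were higher are also known from stroma. S100a6, or calcyclin, which binds the ubiquitin-ligase adaptor Cacybp, had a signal of 9.37 on the WT control array and 9.75 on the SOX2 KO array, 1.30-fold higher. S100a4, a partner of non-muscle myosin that is abundant in fibroblasts and macrophages, read 3.48 on the WT control array and 3.98 on the SOX2 KO array. Only the SOX2 KO value was above the background level, so S100a4 was at least 1.10-fold higher. S100a3, known mainly from the hair cuticle, was under the background level on both arrays at 3.67 and 3.40, and no fold is given.

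Markers of stromal cells differed between the arrays, and not all in 1 direction. All 6 smooth muscle markers were higher in the SOX2 KO. Acta2 went from 4.16 to 7.05, Myh11 from 3.97 to 6.26 and Actg2 from 3.31 to 5.24, all past 2-fold also against the background level, and Cnn1 from 3.10 to 4.53, at least 1.61-fold. The linear signals of the 6 summed to 79.51 on the WT control array and 314.5 on the SOX2 KO array. The 9 fibroblast markers summed to 97.26 and 160.2, and Dcn alone, going from 2.83 to 5.90, made up 52.6 of the change of 62.9. Thy1 was lower, at 4.04 and 3.45, and 4 of the 9 were under the background level on both arrays, including Lum and Pdgfra. The 9 other leukocyte markers summed to 215.3 and 251.1, and Cd68, at 7.18 and 7.39, made up 22.7 of the change of 35.8. Cd68 was the only gene of them above the background level on both arrays. Lyz2 went from 2.80 to 4.54 and Csf1r from 3.57 to 3.22. On both arrays 6 of the 9 were under the background level, among them the pan-leukocyte gene Ptprc (2.75 and 3.08). The 4 endothelial markers summed to 47.79 and 42.68, and the 4 Schwann and nerve markers to 35.95 and 32.95, with 0 genes of either list above the background level on both arrays. No marker of these lists was at 0, and their part in the S100a4 and S100a6 differences was not tested.

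All 10 genes lie on mouse chromosome 3. In mm10 coordinates 8 of them stand in a cluster from S100a1 to S100a9, chr3:90511034-90695721, while S100a11 and S100a10 lie 28.8 kb apart on the far side of the cornified envelope genes, the S100a11 probe set starting 2824.8 kb beyond the end of that of S100a9. The cluster of 185 kb held 14 genes in the table, 12 of them S100 genes, and of the 12 genes above the floor 1 was at least 2-fold lower (S100a7a) and 0 were higher. S100a7a, at chr3:90654302-90658130 on the plus strand, stood 39.9 kb from S100a6 and 10.9 kb from S100a8. S100a9, on the minus strand at chr3:90692632-90695721, lay 22.6 kb beyond S100a8. Thus S100a6 on its left was 1.30-fold higher while S100a7a was 3.29-fold lower, and S100a8 on its right was under the background level. In the interval of 2825 kb between S100a9 and S100a11, 39 of 61 genes were above the floor. By plain difference 3 of them were past 2-fold on the lower side (Crct1, Sprr2i and Sprr3). On the higher side were 7 (Flg, Lor, Kprp, Lce1b, Lce1c, Sprr2d and 2310050C09Rik). Of all 15983 genes above the floor, 0.795% were past 2-fold on the lower side and 2.01% on the higher side.

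**Figure D3:**
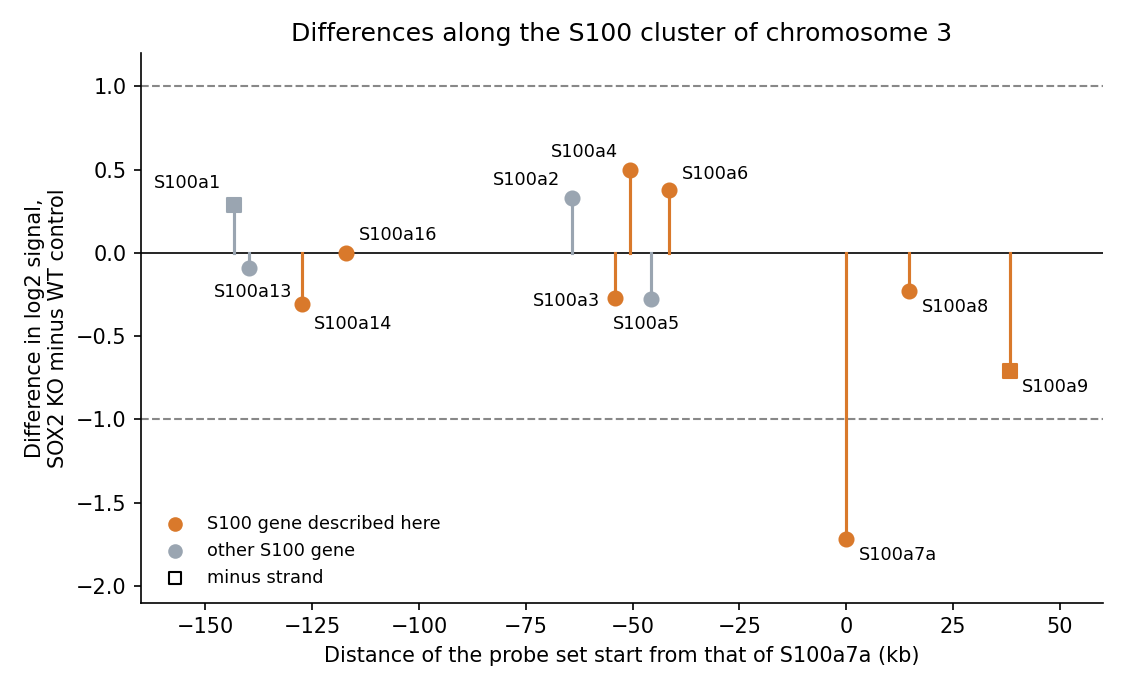
Difference in log2 signal (SOX2 KO minus WT control) of the 12 S100 genes of the cluster, against the distance in kb of each probe set start from that of S100a7a. Orange symbols are S100 genes described here, grey the other S100 genes, squares the minus strand, and dashed lines 2-fold; only S100a7a passes the lower line, with S100a6 at 0.38 and S100a8 at -0.23 on either side.

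Promoter windows, the 250 bases before the RefSeq start (GRCm38.p6, the build called mm10), were matched for 8 of the 10 genes. Shown are the window of S100a7a, the gene past 2-fold, with those of S100a6, its neighbour, S100a9, the next lower, and S100a4, the highest difference. Each runs 5′ to 3′ along its gene, and capitals mark ACAAT on the strand shown or its reverse complement ATTGT, the core letters of motifs bound by SOX factors.
S100a7a, chr3:90654052-90654301, plus strand: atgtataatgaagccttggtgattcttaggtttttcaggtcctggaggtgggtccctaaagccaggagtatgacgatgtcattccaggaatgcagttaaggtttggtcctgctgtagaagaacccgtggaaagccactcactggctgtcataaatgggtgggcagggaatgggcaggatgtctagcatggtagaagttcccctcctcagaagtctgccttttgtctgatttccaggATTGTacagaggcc
S100a6, chr3:90612644-90612893, plus strand: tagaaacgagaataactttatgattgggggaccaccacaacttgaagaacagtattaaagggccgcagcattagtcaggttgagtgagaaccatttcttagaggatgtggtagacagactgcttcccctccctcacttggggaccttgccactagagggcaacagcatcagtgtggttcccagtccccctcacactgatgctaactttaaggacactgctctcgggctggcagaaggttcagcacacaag
S100a9, chr3:90695722-90695971, minus strand: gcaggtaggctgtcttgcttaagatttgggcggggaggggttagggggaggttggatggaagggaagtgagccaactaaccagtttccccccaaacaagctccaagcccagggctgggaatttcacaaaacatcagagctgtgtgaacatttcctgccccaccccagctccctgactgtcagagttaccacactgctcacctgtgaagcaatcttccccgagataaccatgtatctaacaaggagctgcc
S100a4, chr3:90603520-90603769, plus strand: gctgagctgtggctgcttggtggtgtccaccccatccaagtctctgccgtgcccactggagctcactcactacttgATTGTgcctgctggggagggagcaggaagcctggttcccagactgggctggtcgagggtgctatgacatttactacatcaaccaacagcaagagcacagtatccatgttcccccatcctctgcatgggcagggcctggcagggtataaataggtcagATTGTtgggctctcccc

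ACAAT, searched on both strands, was found in 2 of the 8 windows, in S100a7a at a first base 14 before the start and in S100a4 at 174 and 17. S100a7a was 3.29-fold lower. S100a4 was at least 1.10-fold higher, with its WT control signal under the background level. The windows of S100a6 and S100a9 do not carry the motif. ACAAT is present in 27.7% of 32851 windows of the same length. The AP-1 motif TGANTCA was found in 1 of 8, S100a11, at 136 and 38 bases before the start, against 6.75% of all windows. The TATA motif TATAAA was found in S100a4 at 31 bases and in S100a8 at 30 bases before the start, 2 of 8 against 12.4%. These are matches of letters and were not tested for binding. The study did measure SOX2 binding to DNA, by CUT&RUN in control and Sox2Δ/Δ forestomach organoids, and those data were not used here.

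The 8 other S100 genes of the table had differences from -0.30 to 0.33 with 0 past 2-fold, at signals mostly near or under the background level. S100a13, which takes part in the release of interleukin 1 alpha, was the only gene of them above the background level on both arrays, at 4.24 and 4.15. S100a1, a muscle S100 protein, read 3.75 on the WT control array and 4.04 on the SOX2 KO array, and S100a2, an epithelial S100 protein in humans, read 3.55 and 3.88. The remaining 5 (S100a5, S100a7l2, S100b, S100g and S100z) were under the background level on both arrays. S100a7l2, a close relative of S100a7a, was among them, at 3.04 and 3.28.

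The S100 fused-type proteins join an S100 domain to long repeats and lie between S100a9 and S100a11. Of 7 listed, 6 were above the floor, with 0 lower and 1 higher by 2-fold or more and a median of 0.00. Filaggrin (Flg), which bundles keratin, went from 4.59 to 6.03, or 2.71-fold higher, the opposite direction to S100a7a. Hornerin (Hrnr) went from 3.33 to 4.17, at least 1.25-fold higher. Cornulin (Crnn) was under the background level on both arrays, at 3.79 and 3.25.

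Of 14 intracellular partners of S100 proteins in the table, counting the crosslinking enzymes Tgm1, Tgm2 and Tgm3 among them, 13 were above the floor. By 2-fold or more 0 were lower and 1, the enzyme gene Tgm3, was higher, and the median was -0.25. Anxa1, the partner of S100a11, went from 10.28 to 9.56 (1.65-fold lower), and Anxa2, the partner of S100a10, from 7.55 to 7.01 (1.45-fold lower), while S100a11 and S100a10 themselves differed by -0.03 and -0.12. The S100a6 partners Cacybp, at 7.49 and 7.16, and Sugt1, at 5.46 and 4.91, were lower where S100a6 was higher. Myh9, the heavy chain that S100a4 binds, read 6.27 and 6.05. Among the transglutaminases that crosslink envelope proteins, Tgm1 went from 7.33 to 6.43 (1.87-fold lower), and Tgm3 from 3.30 to 4.80 (at least 1.94-fold higher). Tgm3 is the gene counted as higher by its plain difference, and against the background level it does not reach 2-fold.

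Receptors of secreted S100 proteins showed 0 of 6 genes above the floor past 2-fold, with a median of 0.15. The receptor for advanced glycation end products, Ager, read 4.15 on the WT control array and 4.35 on the SOX2 KO array. Basigin (Bsg), which binds S100A9 in human cells, read 7.20 and 7.47, and neuroplastin (Nptn), which binds S100A8 in human cells, read 7.04 and 7.32. Tlr4, at 3.52 on both arrays, was under the background level, and so were Cd36, Emb, Mcam and Alcam.

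The cytokines IL-1, IL-17, IL-22 and IL-36 induce S100a7a, S100a8 and S100a9 in keratinocytes together with other antimicrobial genes. Of 26 genes listed for these cytokines, their receptors, mediators and targets, 25 were above the floor, 3 were lower and 1 was higher by 2-fold or more, with a median of -0.05. The 3 lower genes encode secreted antimicrobial proteins, as S100a7a does. The beta-defensin gene Defb4 went from 7.82 to 5.09 (6.63-fold lower), Slpi, a secreted leukocyte protease inhibitor, from 7.37 to 5.88 (2.81-fold lower), and the beta-defensin gene Defb14 from 6.64 to 5.22 (2.68-fold lower). The higher gene was Lcn2, an iron-siderophore binding protein, which went up by 1.04 from 3.96 (2.06-fold higher), so the antimicrobial targets did not all differ in 1 direction. Of the cytokines, Il1a read 7.19 and 7.03, Il36g 6.85 and 6.79, Il36b 4.44 and 4.30, and Il36a 4.22 and 4.55. The receptor gene Il17ra (4.43 and 4.71) and the mediator Nfkbiz (4.88 and 5.06) differed by 0.28 or less, and the receptor gene Il22ra1 by 0.08. Of the transcription factors, Cebpb went from 5.31 to 4.70 and Stat3 from 5.60 to 6.04.

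**Figure D4:**
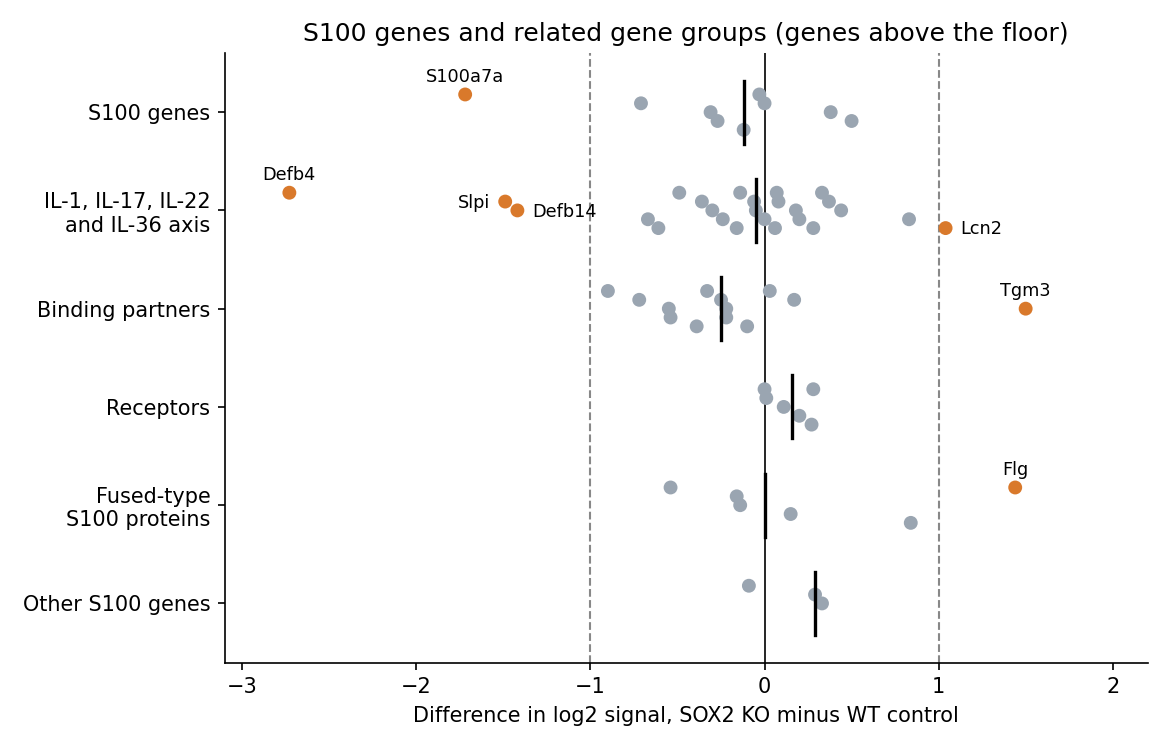
Difference in log2 signal (SOX2 KO minus WT control) of each gene above the floor in the S100 genes and 5 related groups, with a black bar at each group's median and dashed lines at 2-fold. Orange points are past 2-fold: S100a7a, Defb4, Slpi and Defb14 on the lower side and Lcn2, Tgm3 and Flg on the higher side, with group medians from -0.25 to 0.29.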

How the data were processed

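RNA isolated from 1 WT control and 1 SOX2 KO forestomach organoid culture was hybridized to 1 array each. Normalization was done by the authors with Transcriptome Analysis Console, and the values they deposited are log2 signals of 34472 probe sets, annotated on mm10 per the file headers. For the software version and the summarization method, the sources used here give nothing. Columns of the authors' own comparison (fold change, raw p-value and FDR) were not used. Depth does not apply to arrays, and their number limits the precision.

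Samples were grouped by the submitters' genotype labels. Probe sets with 1 gene symbol gave 29456 genes, taking the probe set of highest mean signal. The S100 genes and all gene lists were chosen with earlier results of these data known. Named genes were all S100 genes of the table and Sox2. From each list of related genes came the genes past 2-fold, or otherwise the 3 with the largest difference above the floor. Other named list genes were added after their values were seen, as partners or inducers of S100 genes or for their differences. Cell type markers were named as defining genes of their type or for their differences, also after their values were seen. S100a7l2 was matched as 9130204L05Rik and Il36a, Il36b and Il36g as Il1f6, Il1f8 and Il1f9 through RefSeq synonyms. Anxa11, present only in a probe set with several symbols, was not counted. Promoter windows came from RefSeq (GRCm38.p6). S100a10 and S100a14 were not matched. Summed marker signals add 2 raised to each log2 signal.

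Alternatives comprised loess (span 0.3), quantile and median scaling, other floors, probe set rules and fold thresholds, and the values of the series table. Counting was tested on simulated data. Python 3.11.15, pandas 2.3.3 and numpy 2.4.6 were used.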

Additional observations from a re-analysis of the deposited data

How the results depend on the processing

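No paired analysis was possible because the design had 1 array per genotype, and no array could be left out. At a 1.5-fold threshold 2 S100 genes were lower (S100a7a and, by its plain difference though not against the background level, S100a9) in place of 1, with 708 of all genes above the floor lower and 1031 higher. At 3-fold all genes gave 28 lower and 80 higher. Over the other alternatives all genes gave 103 to 148 lower and 231 to 329 higher. The difference of S100a7a ran from -1.80 to -1.72, of S100a9 from -0.73 to -0.70, of S100a6 from 0.28 to 0.38, of S100a14 from -0.34 to -0.31, of S100a10 from -0.15 to -0.06, of S100a11 from -0.12 to -0.03 and of S100a16 from -0.09 to 0.00. The median of the S100 genes ran from -0.15 to -0.07 under other scalings and floors and was -0.17 over all 10 without a floor, and their mean was -0.25. Of 126 named or listed genes 3 changed sign, all under quantile scaling and all near 0: Anxa5 from 0.03 to -0.10, Krt14 from 0.03 to -0.04 and Sfn from 0.02 to -0.04. Krt4 was the only gene of them to change its side of 2-fold. Quantile scaling moved the median of all genes to -0.04, the other scalings to -0.01. The series value table held the same values (0 probe sets differed), so it tests nothing, and each S100 gene has 1 probe set, so other probe set rules could not move them. With 1 array a group, variation between cultures is unknown.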
